A study of Mus musculus with 10 samples.

Results

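The miR-183 cluster is a group of 3 microRNA (miRNA) hairpins, mmu-mir-183, mmu-mir-96 and mmu-mir-182, that lie on the same strand of mouse chromosome 6. They were taken by name from the small RNA profiles of mature sperm, in which 1136 miRNA hairpins were listed with reads, and all 3 were among the 529 hairpins that passed the filter on low counts. The profiles came from spermatozoa of C57BL/6J males, collected from the tail of the epididymis and the vas deferens. The CD-F0 group (n = 5) ate a control diet with 10% of kcal from fat and the HFD-F0 group (n = 5) a high-fat diet with 42%, in both groups from 4 weeks of age and for 10 weeks. No allele or transgene was given for either group. The labels number the samples but do not say whether each came from 1 animal, so the tests measure the spread between these samples.

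A miRNA gene is transcribed into a long precursor, from which hairpins are cut out, and each hairpin yields a mature strand that guides an Argonaute protein to mRNAs. Target choice rests mainly on the seed, the bases that follow the first base of the mature strand. The miR-183 cluster is made from 1 precursor transcript and is best known from sensory cells: the hair cells of the inner ear, the photoreceptors of the retina and sensory neurons. Mutations in the seed of miR-96 cause hearing loss in mice and humans. Outside the sensory organs, mRNAs of FoxO transcription factors are among the known targets of miR-96 and miR-182, and the cluster is raised in many carcinomas.

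The mature strands are shown because the relatedness of the members, and the question of whether a read of one could be counted for another, rests on their bases. All 3 hairpins were matched in the RefSeq annotation of GRCm38.p6, from which the sequences of the 5′ arms are given 5′ to 3′, with the seed (bases 2 to 8) in capitals.
mmu-miR-183-5p: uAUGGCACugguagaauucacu
mmu-miR-96-5p: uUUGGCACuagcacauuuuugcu
mmu-miR-182-5p: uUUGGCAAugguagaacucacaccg
Counted from 1 at the 5′ end, with the base of the strand named first, the seeds of miR-183-5p and miR-96-5p differed by A2U alone, those of miR-96-5p and miR-182-5p by C8A alone, and those of miR-183-5p and miR-182-5p by both A2U and C8A. No pair therefore shared the whole seed, while miR-96-5p and miR-182-5p shared bases 2 to 7. Over all the bases compared, from base 1 and with the seed included, the kinship was different. miR-183-5p and miR-182-5p had the same base at 18 of 22 positions, miR-183-5p and miR-96-5p at 13 of 22, and miR-96-5p and miR-182-5p at 12 of 23. Of the other mouse miRNAs in the RefSeq table, mmu-miR-1271-5p from chromosome 13 had the seed of miR-96-5p. It is shown for that reason. Its hairpin was not listed with reads in any library, so it was not analysed here.
mmu-miR-1271-5p: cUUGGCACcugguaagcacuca
In every stretch of 18 bases of the mature strands of the 3 members there were at least 2 mismatches to each of the other 1004 hairpins of the table, with the nearest match between miR-183-5p and miR-182-5p. The alignment allowed 1 mismatch. All 30 values of the members were whole numbers, as they are when no read was split between hairpins. The files count reads per hairpin, so the 5′ and 3′ arms were not separated.

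On GRCm38.p6 the hairpins lie on the minus strand of chromosome 6, in the order of transcription mmu-mir-183 (chr6:30169668-30169737), mmu-mir-96 (chr6:30169446-30169551) and mmu-mir-182 (chr6:30165918-30165992). They fall within the long non-coding RNA gene Mirc35hg, also called linc_miR96, at chr6:30158640-30174125. Only 116 bases separate the hairpins of mmu-mir-183 and mmu-mir-96, whereas 3453 bases separate mmu-mir-96 from mmu-mir-182.

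Levels were expressed as RPM, the reads of a hairpin per 1000000 clean reads of the library. The libraries held 29558751 to 32178088 clean reads, of which miRNAs took 15.4% to 18.2% among CD-F0 samples and 14.5% to 23.5% among HFD-F0 samples. HFD-F0 replicate 1 had the highest miRNA share of all libraries and HFD-F0 replicate 5 the lowest. The members were read 2049 to 16223 times per library, which gives 95% Wilson intervals of 1.54% to 4.33% of the value to either side. These intervals cover counting error only.

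All 3 hairpins were present in every sample at moderate levels. By mean RPM they ranked 86th (mmu-mir-96), 105th (mmu-mir-183) and 113th (mmu-mir-182) among the 1136 listed hairpins. Together they amounted to 563 to 801 RPM among CD-F0 samples (mean 667) and 521 to 1051 RPM among HFD-F0 samples (mean 734), or 0.396% ± 0.0613 and 0.389% ± 0.0464 of the miRNA reads (SD, n = 5 each). The sum was highest in HFD-F0 replicate 1, at 1051 RPM, and lowest in HFD-F0 replicate 5, at 521 RPM, the libraries with the highest and lowest miRNA shares.

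mmu-mir-183, the hairpin nearest the start of the transcript, gave 228.9, 192.6, 171.4, 179.2 and 201.1 RPM in CD-F0 replicates 1 to 5. In HFD-F0 replicates 1 to 5 it gave 259.1, 209.7, 173.7, 203.4 and 147.9 RPM. The HFD-F0 values enclosed all the CD-F0 values, with the highest and the lowest of the 10 samples both in the HFD-F0 group. The means were 195 ± 22.4 RPM for CD-F0 and 199 ± 41.8 RPM for HFD-F0 (SD, n = 5 each), a ratio of 1.02 with p = 0.833 in a two-sided exact permutation test.

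mmu-mir-96, whose mature strand carries the seed tied to hearing loss, was the most abundant of the 3 in every library. Its CD-F0 values were 412.7, 324.5, 246.6, 310.3 and 353.3 RPM in replicates 1 to 5. Its HFD-F0 values were 506.9, 286.8, 328.5, 396.2 and 267.1 RPM. The groups overlapped over most of their range, and only HFD-F0 replicate 1 lay above the CD-F0 samples. The means were 329 ± 60.7 RPM and 357 ± 97.3 RPM (SD, n = 5 each), a ratio of 1.08 with p = 0.619 in the same exact permutation test.

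mmu-mir-182, the hairpin farthest along the transcript, was the most variable member. Its CD-F0 values were 159.3, 216.4, 145.1, 129.7 and 65.4 RPM in replicates 1 to 5. Its HFD-F0 values were 284.7, 153.2, 162.6, 183.1 and 105.8 RPM. CD-F0 replicate 5 was the lowest library, with a Wilson interval of 62.7 to 68.3 RPM, and HFD-F0 replicate 1 the highest, and the groups overlapped. The means were 143 ± 54.4 RPM for CD-F0 and 178 ± 66.1 RPM for HFD-F0 (SD, n = 5 each), a ratio of 1.24 with p = 0.413 in the exact permutation test. Without HFD-F0 replicate 1 the ratio was 1.06.

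**Figure D1:**
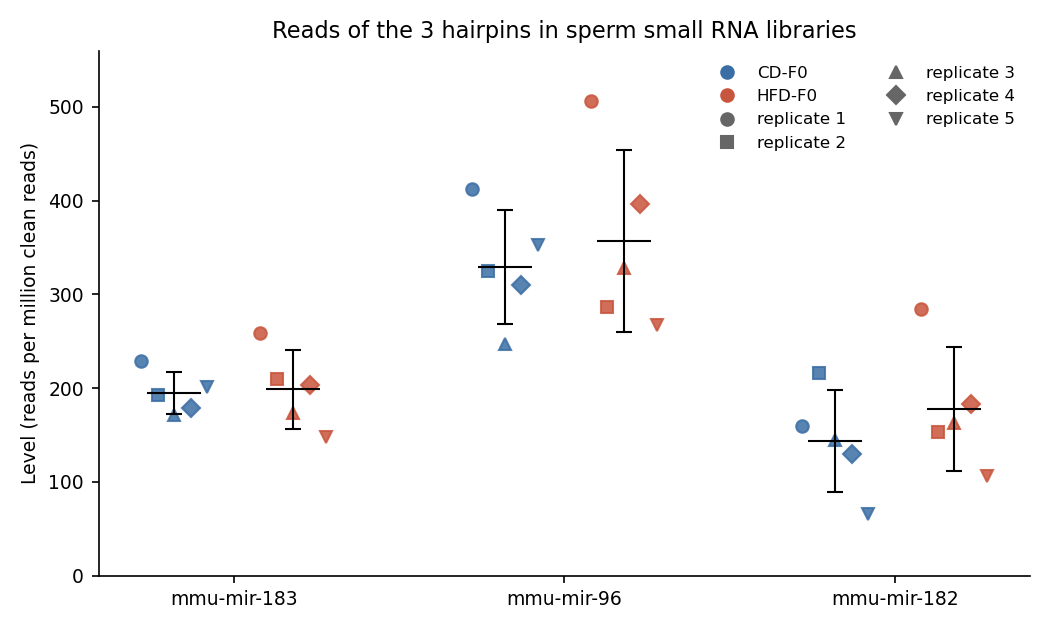
Level of each hairpin in RPM (linear axis from 0), with 1 point per sperm library, colours for the diet groups and shapes for the replicate number, and black bars for the mean ± SD of 5 libraries. For each hairpin the CD-F0 and HFD-F0 points overlap, and the top point is HFD-F0 replicate 1, at 259.1, 506.9 and 284.7 RPM.

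The diet comparison was also made in a fit across all 814 features with edgeR, with normalization by TMM (trimmed mean of M-values, which scales libraries to the bulk of their features) in place of clean reads. The thresholds of that edgeR fit were an unadjusted p of at most 0.05 and a log2 fold change of at least 1 either way. Neither mmu-mir-183, mmu-mir-96 nor mmu-mir-182 passed them, so 0 of the 3 members were called by edgeR, and the number with an unadjusted p under 0.05 was also 0, as it was with DESeq2. Of all features, 30 passed (3.69%), and of the 529 miRNA hairpins 15 passed (2.84%), 3 higher and 12 lower in the HFD-F0 group. By an unadjusted p ≤ 0.05 alone, edgeR called 83 of all features (10.2%) and 51 of the miRNA hairpins (9.64%). By an adjusted p under 0.05 it called 1 of all features (0.123%) and 0 of the miRNA hairpins (0%). DESeq2 called 4 miRNA hairpins by an adjusted p under 0.05 and gave no adjusted p for 11, and no member was among its calls.

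In that fit the log2 fold change of mmu-mir-183 in HFD-F0 against CD-F0 was -0.08 ± 0.17 (SE), with an adjusted p of 0.914 in edgeR's quasi-likelihood test. For mmu-mir-96 the log2 fold change was -0.01 ± 0.19 (SE), with an adjusted p of 0.991 in the same edgeR test. For mmu-mir-182 it was 0.19 ± 0.29 (SE), with an adjusted p of 0.908 in the same edgeR test. The direction of mmu-mir-183 and mmu-mir-96 thus depended on the scale, slightly higher in the HFD-F0 group per clean read and slightly lower after TMM. The 95% intervals of the fold change ran from 0.734 to 1.21 for mmu-mir-183, from 0.742 to 1.33 for mmu-mir-96 and from 0.738 to 1.76 for mmu-mir-182, so a 2-fold change in either direction lay outside each of them. The median absolute log2 fold change of the 529 hairpins was 0.20, and 406 of them had a larger one than mmu-mir-183, 503 than mmu-mir-96 and 282 than mmu-mir-182.

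The balance between the 3 hairpins within a library does not depend on depth or normalization. mmu-mir-96 made up 49.3% ± 5.49 of the cluster's reads in the CD-F0 group and 48.7% ± 2.82 in the HFD-F0 group (SD, n = 5 each). mmu-mir-183 made up 29.3% ± 2.30 and 27.5% ± 2.99, and mmu-mir-182 made up 21.3% ± 7.15 and 23.8% ± 2.43. The share of mmu-mir-182 was lowest in CD-F0 replicate 5, at 10.6%, and highest in CD-F0 replicate 2, at 29.5%, so that both extremes lay in the control group.

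**Figure D2:**
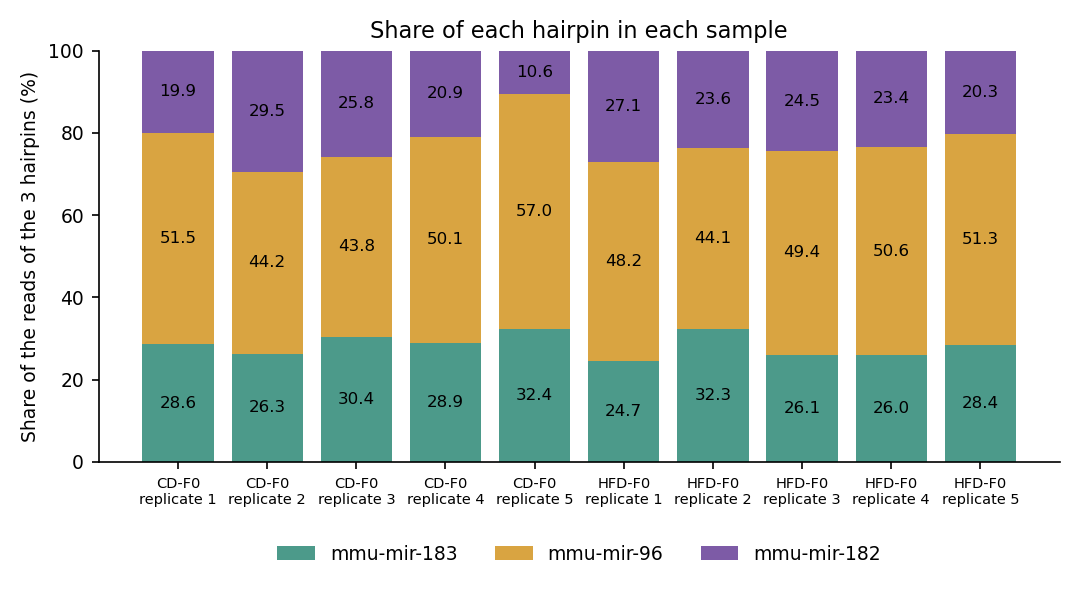
Share of each hairpin, in percent, of the reads of the 3 hairpins together in each of the 10 sperm libraries, as stacked bars with the value written in each segment. mmu-mir-96 holds the largest segment in each library (43.8% to 57.0%), and the mmu-mir-182 segment is narrowest in CD-F0 replicate 5, at 10.6%.

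Within libraries, mmu-mir-96 exceeded mmu-mir-183 in 10 of 10 samples, by 1.73-fold on average (geometric mean) and by 1.37-fold to 1.96-fold in single samples. A two-sided exact sign-flip permutation test over the 10 samples gave p = 0.00195, the smallest p it allows. mmu-mir-96 likewise exceeded mmu-mir-182 in 10 of 10 samples, by 2.24-fold on average, with the same p of 0.00195 in the exact sign-flip test. mmu-mir-183 exceeded mmu-mir-182 in 8 of 10 samples, by 1.29-fold on average, with p = 0.0215 in the exact sign-flip test, and the order was the other way in CD-F0 replicate 2 and HFD-F0 replicate 1. The lower pair of the order thus differed by less, relative to its spread, than either did from mmu-mir-96. These 3 tests were not adjusted. A difference in the number of molecules and a difference in how well the mature strands are ligated and amplified cannot be told apart in a comparison of 2 sequences.

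The ratios between members did not differ between the diets beyond the spread of the samples. The log2 ratio of mmu-mir-183 to mmu-mir-96 was -0.75 ± 0.13 in the CD-F0 group and -0.83 ± 0.22 in the HFD-F0 group (SD, n = 5 each), a difference of -0.08 with p = 0.468 in a two-sided exact permutation test. As a plain ratio it ran between 0.555 and 0.695 under the control diet and between 0.511 and 0.731 under the high-fat diet, and the single highest sample was HFD-F0 replicate 2. Without that sample the other HFD-F0 samples reached 0.554, just under the lowest CD-F0 value of 0.555, a gap smaller than the counting error. The log2 difference was then -0.18, with p = 0.0159 in the exact permutation test over 5 and 4 samples. That sample is the one that lay most against the difference, and the p was not adjusted for the samples left out in turn. Leaving out any other sample gave p of 0.413 to 0.897 in the same test, so no diet difference is drawn from it. The log2 ratio of mmu-mir-183 to mmu-mir-182 differed by -0.33 between the groups (p = 0.349, exact permutation test) and that of mmu-mir-96 to mmu-mir-182 by -0.24 (p = 0.595, exact permutation test). Both spread more in the CD-F0 group, with SDs of 0.66 and 0.72 against 0.26 and 0.20 in the HFD-F0 group, and CD-F0 replicate 5 held the highest value of each, at ratios of 3.07 and 5.40.

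Across the 10 samples, the neighbours mmu-mir-183 and mmu-mir-96 kept a narrow ratio. The SD of its log2 value was 0.17, against 0.51 for mmu-mir-183 to mmu-mir-182 and 0.52 for mmu-mir-96 to mmu-mir-182. Without CD-F0 replicate 5 the SDs were 0.18, 0.27 and 0.27. Taken one by one, the SD of log2 RPM over the 10 samples was 0.23 for mmu-mir-183, 0.31 for mmu-mir-96 and 0.57 for mmu-mir-182. Of the 162 hairpins with a mean of at least 50 RPM, whose median SD was 0.33 (interquartile range 0.27 to 0.45), 22 varied less than mmu-mir-183, 70 less than mmu-mir-96 and 139 less than mmu-mir-182. Without CD-F0 replicate 5 the SD of mmu-mir-182 was 0.41.

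Covariation was measured as the correlation of log2(RPM + 0.1) over the 10 samples, with permutation p-values adjusted over the 1581 relations of a member with any tested hairpin. mmu-mir-183 and mmu-mir-96 had a Pearson r of 0.837 (permutation p = 0.00280, adjusted p = 0.343) and a Spearman rho of 0.770 (permutation p = 0.0123). Leaving out HFD-F0 replicates 1 and 5, which lie farthest from the median of mmu-mir-183, gave r = 0.668 with p = 0.0682 in an exact permutation test, so over the remaining 8 samples the relation no longer passed. With any single sample left out, r was 0.719 to 0.923 and the largest exact permutation p was 0.0293. The relation did not pass the adjustment over all relations, and 0 of the 1581 relations did. With deviations from the mean of the own diet group in place of the values, r was 0.844.

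mmu-mir-182 followed the other two less closely, and with neither did the correlation pass the test. With mmu-mir-183 its r was 0.483 (permutation p = 0.153, adjusted p = 0.736; rho 0.503, permutation p = 0.146), and with mmu-mir-96 its r was 0.452 (permutation p = 0.189, adjusted p = 0.753; rho 0.539, permutation p = 0.115). Without the 2 samples farthest from the median of the first hairpin, these fell to -0.02 (exact permutation p = 0.969) and 0.179 (exact permutation p = 0.690). Without CD-F0 replicate 5 alone they were 0.791 and 0.755, with exact permutation p of 0.0118 and 0.0186. A single library thus moved both relations across the threshold of the permutation test. Whether the correlation of mmu-mir-183 with mmu-mir-96 was higher than those with mmu-mir-182 was not tested.

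**Figure D3:**
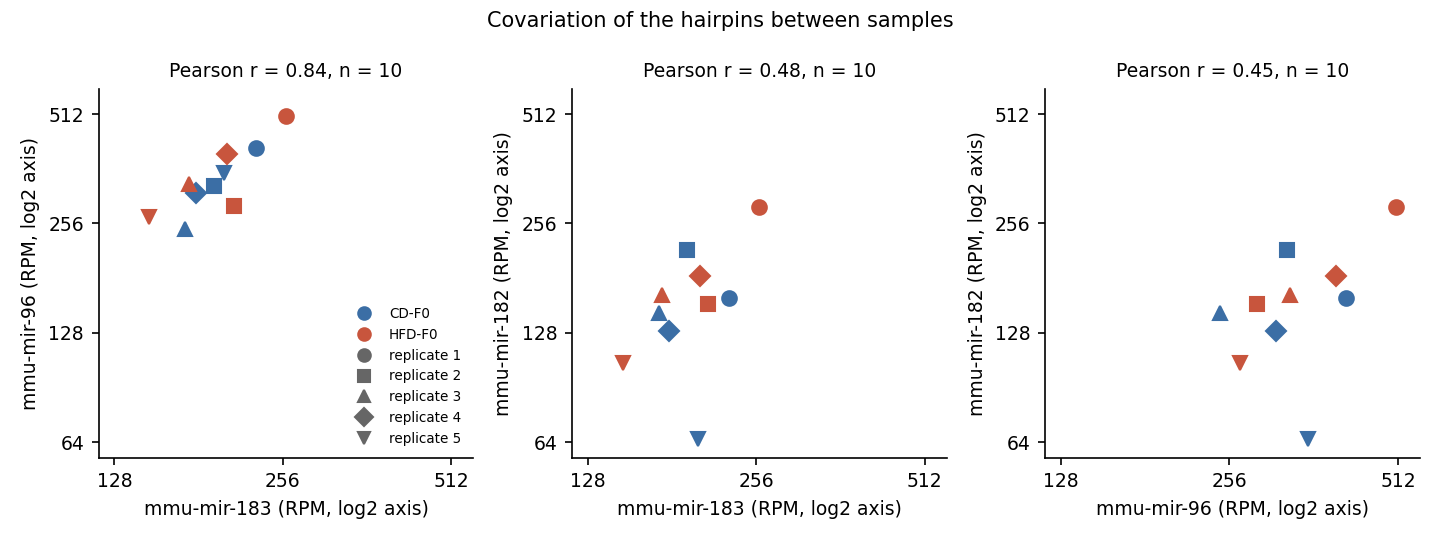
RPM of the members against each other on log2 axes, 1 panel per pair and 1 point per library (colours for the diet groups, shapes for the replicate number), with Pearson r over 10 samples above each panel. The points of mmu-mir-183 and mmu-mir-96 rise together between HFD-F0 replicate 5 or CD-F0 replicate 3 and HFD-F0 replicate 1 (r = 0.837), whereas CD-F0 replicate 5 lies far below the other points in both panels of mmu-mir-182.

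RPM values share the clean reads of the library as their denominator, so any pair of hairpins also shares the miRNA content of the libraries. The members' median r with all 528 other tested hairpins was 0.217 for mmu-mir-183, 0.167 for mmu-mir-96 and 0.254 for mmu-mir-182. Ranked by r, mmu-mir-96 was the 9th of 528 hairpins for mmu-mir-183, and mmu-mir-183 the 6th for mmu-mir-96. mmu-mir-182 was the 121st for mmu-mir-183 and the 130th for mmu-mir-96, and for mmu-mir-182 the ranks were the 72nd (mmu-mir-183) and the 90th (mmu-mir-96). Relative to the miRNA reads instead of the clean reads, r was 0.738 for mmu-mir-183 with mmu-mir-96, -0.04 for mmu-mir-183 with mmu-mir-182 and 0.106 for mmu-mir-96 with mmu-mir-182.

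For a wider view, the 411 tested hairpins with a position in the RefSeq table gave 338 pairs within 10 kb of each other on the same strand. Their median r was 0.409 (interquartile range 0.09 to 0.64), against 0.127 over all 139656 pairs of tested hairpins. Of the neighbouring pairs, 32 had a higher r than mmu-mir-183 with mmu-mir-96, 141 a higher r than mmu-mir-183 with mmu-mir-182 and 154 a higher r than mmu-mir-96 with mmu-mir-182. Of all pairs, 1.60%, 18.4% and 20.8% had a higher r. The neighbouring pairs are not independent of each other, since a hairpin of a large cluster is in several of them. They also include copies of the same miRNA, such as mmu-mir-465b-1 with mmu-mir-465b-2 (r = 1).

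**Figure D4:**
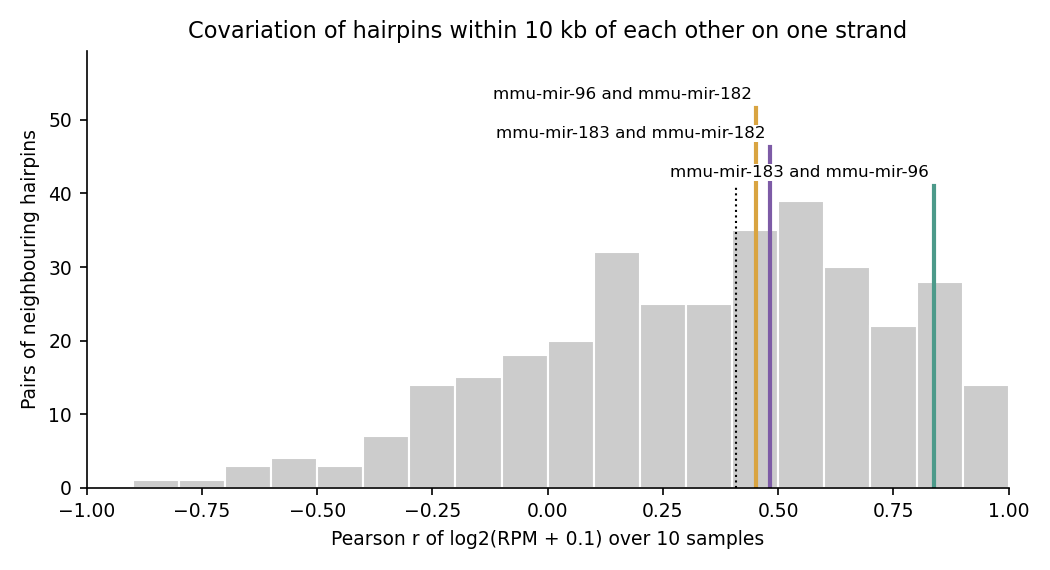
Histogram of Pearson r of log2(RPM + 0.1) over the 10 samples for 338 pairs of tested hairpins within 10 kb of each other on the same strand, with a dotted line at their median of 0.409 and coloured lines at the 3 pairs of the cluster. mmu-mir-183 with mmu-mir-96 lies to the right, at 0.837, and both pairs with mmu-mir-182 lie just above the median, at 0.483 and 0.452.

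The hairpins of the miR-183 cluster were set beside those of other clusters of 3. These levels are reads per hairpin and carry the same limit from ligation and amplification. Whether reads of other hairpins could be counted for those of the other clusters, mmu-let-7e among them, was not checked. The mean RPM of its most abundant hairpin was 2.14-fold that of its least abundant, against 3.17-fold for the epithelial cluster of mmu-mir-200b, mmu-mir-200a and mmu-mir-429, 8.25-fold for that of mmu-mir-99b, mmu-let-7e and mmu-mir-125a, and 110.5-fold for that of mmu-mir-106b, mmu-mir-93 and mmu-mir-25. Their pairs had r of 0.585 to 0.834, 0.232 to 0.662 and 0.169 to 0.811, against 0.452 to 0.837 for the miR-183 cluster. In the mmu-mir-106b cluster, mmu-mir-93 with mmu-mir-25 had an r of 0.811, and the pairs with mmu-mir-106b had 0.234 and 0.169. For the miR-183 cluster the gap between its pairs changed with single libraries. Their r were 0.836, 0.791 and 0.755 without CD-F0 replicate 5, and 0.719, 0.196 and 0.123 without HFD-F0 replicate 1. These are descriptions of 1 cluster each, with no test between them.

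The hairpins outside the cluster whose log2 RPM was most like that of the summed cluster were mmu-mir-3084-1 and mmu-mir-3084-2 (r = 0.851 for both, whose values were identical, at a mean of 3.21 RPM), mmu-mir-1981 (r = 0.815, 23.2 RPM), mmu-mir-429 (r = 0.805, 2382 RPM) and mmu-mir-21a (r = 0.792, 12075 RPM), over 10 samples and among 526 hairpins, whose median r was 0.268. mmu-mir-429 belongs to the epithelial miR-200 family, and mmu-mir-21a is abundant in many somatic cells. Their r with mmu-mir-182 alone was lower, at 0.517 to 0.554, while their r was 0.656 to 0.784 with mmu-mir-96 and 0.740 to 0.874 with mmu-mir-183. These hairpins were picked by their r with a sum of which mmu-mir-182 is the smallest part on average. The lower r with mmu-mir-182 is partly set by that choice, and nothing is drawn from it. In each of these hairpins the points share library and depth.

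The labelled cell type was checked against marker miRNAs. All 11 listed hairpins of the male germ line (such as mmu-mir-34c and mmu-mir-449a) had reads, and their summed level was 13218 to 16136 RPM among CD-F0 samples and 9657 to 19019 RPM among HFD-F0 samples. Markers of other cells were present in all libraries, none of them at 0. The 6 epithelial hairpins summed to 3969 to 6756 RPM (CD-F0) and 5520 to 9463 RPM (HFD-F0), the 6 of muscle to 21352 to 29447 and 15876 to 36525 RPM, and the 7 of blood and immune cells to 3686 to 5534 and 3249 to 6033 RPM. The muscle sum was almost wholly that of 1 hairpin, mmu-mir-143, which made up 94.9% of it. The largest hairpin made up 44.4% of the germ line sum, 38.4% of the epithelial sum and 56.0% of the blood and immune sum. HFD-F0 replicate 1, where all 3 members were highest in RPM, also had the highest epithelial, muscle and germ line sums. Its blood and immune sum was 5590 RPM, below the 6033 RPM of HFD-F0 replicate 2. The miRNA share of HFD-F0 replicate 1 was the highest too, at 23.5% of clean reads. Whether that share accounts for its high values was not tested. Relative to miRNA reads the members were not highest there. mmu-mir-183 and mmu-mir-96 had 0.110% and 0.215%, against 0.133% and 0.241% in CD-F0 replicate 1. mmu-mir-182 had 0.121%, against 0.128% in CD-F0 replicate 2. The marker sums were not computed relative to miRNA reads. The 10 hairpins of sensory and neural tissue, where the cluster is best known, summed to 900 to 2164 RPM (CD-F0) and 883 to 1425 RPM (HFD-F0), with the highest sum in CD-F0 replicate 4, where none of the 3 members was highest. In these bulk libraries, fewer cells of a type and less RNA per cell cannot be told apart, and the part of other cells in the levels of the members was not tested.

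Among these marker hairpins, the edgeR thresholds were passed by 1 of 6 of muscle and 3 of 10 of sensory and neural tissue. Over all features the share was 3.69%, and over the miRNA hairpins 2.84%. mmu-mir-145a of muscle was higher in the HFD-F0 group (log2 fold change 1.09 ± 0.38 SE, adjusted p = 0.293 in edgeR), while 4 of the 6 muscle hairpins had fold changes below 0 and the median log2 fold change of the list was -0.02. The others were mmu-mir-9-1, mmu-mir-9-2 and mmu-mir-9-3, whose values were nearly identical (log2 fold changes of -1.41 to -1.43, adjusted p of 0.430 to 0.432 in edgeR). They are therefore not 3 separate observations. In CD-F0 replicate 4, mmu-mir-9-1 had 219.6 RPM against 20.6 to 34.7 RPM in the other CD-F0 samples, and without that sample its log2 fold change was -0.09 with an adjusted p of 0.961 in edgeR. No epithelial, blood or germ line marker passed. Of the epithelial hairpins, 6 had fold changes above 0 and 0 below (log2 fold changes of 0.01 to 0.46, median 0.29). The median over the 529 miRNA hairpins was -0.05. The epithelial list includes neighbours within 10 kb of each other, whose pairs had r of 0.585 to 0.844. Its directions are therefore not 6 separate observations. Of those of blood and immune cells 5 were above and 2 below 0, and of the germ line 4 and 7. Of the sensory and neural hairpins 2 were above and 8 below 0, with a median log2 fold change of -1.14. That list holds several copies of the same miRNA, mmu-mir-9 among them. These directions were not tested.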

How the data were processed

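Sperm small RNA of 18–30 nt was sequenced by the authors on the DNBSEQ platform. Per the labels a NEB kit was used, and the study's methods describe adapters with unique molecular identifiers. Whether duplicates were collapsed by identifier is not given in the sources used here. With SPORTS and Bowtie (1 mismatch; mm10 in the submitters' processing notes), the authors assigned clean reads to RNA classes and deposited them without normalization as estimated counts (36.0% to 38.5% of the listed features per library were not whole). Here genome-matched and unmatched reads were added, divided by clean reads for RPM, and rounded for edgeR 4.0.16 (R 4.3.3; filterByExpr, TMM, quasi-likelihood test, Benjamini-Hochberg adjustment over 814 features), with the study's thresholds. Exact permutations covered 252 assignments (smallest p 0.00794). Sign-flip tests used log2 ratios with 0.5 reads added, and correlations over 10 samples used 100000 permutations (SciPy 1.17.1). The scripts were tested on simulated data.

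The text names the 3 members, hairpins that share their seed, the 5 hairpins most like their sum and 3 other clusters, and gives marker lists by counts. Members and lists were chosen with earlier results of these data known. Marker hairpins that passed the thresholds, mmu-mir-143 and the copies of mmu-mir-465b were named after their values were seen. No member had reads that did not match the genome in any library, so a planned comparison of that share had no values. No pair of libraries agreed within sampling noise (chi-square per degree of freedom of at least 514 over 45 pairs). Alternatives were DESeq2 1.42.0, other library sizes, filters, denominators, pseudocounts, a replicate block and the samples left out in turn.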

Additional observations from a re-analysis of the deposited data

Results flagged for a closer look

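The log2 ratio of mmu-mir-183 to mmu-mir-96 in HFD-F0 replicate 2 was -0.45, far from the other HFD-F0 samples, which ran from -0.97 to -0.85. Its gap to the nearest sample was 0.777 of the range of the group, above Dixon's 95% critical value of 0.71 for 5 samples. The levels and log2 ratios of the members made 12 groups of 5 samples, and chance alone marks about 1 in 20 groups.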

How the results depend on the processing

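Of 288 recomputed values, 248 kept their direction and their side of the threshold (or, for counts, stayed within 1.5 times), and no alternative brought a member past the edgeR thresholds. The log2 fold change became 0.030 for mmu-mir-183 and 0.12 for mmu-mir-96 with clean reads as library size, and 0.039 for mmu-mir-96 with miRNA hairpins only. With miRNA reads as the denominator the RPM ratio of HFD-F0 to CD-F0 was 0.919 for mmu-mir-183 and 0.970 for mmu-mir-96, and r of mmu-mir-183 with mmu-mir-182 was -0.039. Without the 2 farthest samples that r was -0.018, and r of mmu-mir-183 with mmu-mir-96 was 0.668. Without a filter, 39 features were higher and 54 lower, of which 17 and 53 were miRNA hairpins. With at least 10 reads in every sample, 11 features were higher and 8 lower.

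When single samples were left out, the log2 fold change ran from -0.17 to 0.026 for mmu-mir-183, from -0.13 to 0.13 for mmu-mir-96 and from 0.01 to 0.34 for mmu-mir-182, and the RPM ratio from 0.944 to 1.09, from 0.970 to 1.16 and from 1.06 to 1.42. The r ran from 0.719 to 0.923 for mmu-mir-183 with mmu-mir-96, from 0.196 to 0.791 for mmu-mir-183 with mmu-mir-182 and from 0.123 to 0.755 for mmu-mir-96 with mmu-mir-182, the lowest of each without HFD-F0 replicate 1. The diet difference in log2 ratio ran from -0.18 to -0.029 (mmu-mir-183 to mmu-mir-96), from -0.50 to -0.06 (mmu-mir-183 to mmu-mir-182) and from -0.42 to 0.045 (mmu-mir-96 to mmu-mir-182), and the order of the hairpins kept p ≤ 0.05 in each exact sign-flip test, with the largest permutation p at 0.0430. The numbers of features ran from 12 to 23 higher and from 6 (without CD-F0 replicate 4) to 27 (without CD-F0 replicate 5) lower, and of miRNA hairpins from 2 to 8 higher and from 6 to 26 lower, these last without CD-F0 replicates 4 and 5 again. The cause was not tested for any of these.

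The samples share only a replicate number: same-numbered samples had correlations of deviations of 0.336, -0.09, 0.246, -0.19 and -0.14. With the replicate block, 8 features were lower in place of 13, the log2 fold change of mmu-mir-182 was 0.24, and those of mmu-mir-183 and mmu-mir-96 were -0.09 and -0.00. At 2049 to 16223 reads per value, counting intervals were at most 4.33% to either side, and they do not cover duplicates from amplification.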
